A study of Mus musculus with 46 samples.

Results

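The transcripts of 5 genes for the uptake and release of short-chain fatty acids (SCFA) were measured in the cecum and liver of mice on 4 diets. The genes were Slc5a8, Slc16a1, Slc16a3, Slc16a7 and Bsg, and they are 5 of 20887 named genes on the array. Their probes were found through the accession that the array files give for each probe, and they numbered 6 of 55681 non-control probes. Slc16a3 had 2 probes and the others had 1, and for each tissue the probe with the higher mean signal was used. The animals were male C57Bl/6 mice, 12 weeks old at the start, 20 weeks old at the end and on their diet for 8 weeks. The labels give all mice the same strain, and the groups differed by diet alone. HFD, the high fat diet, supplied 45% of energy as fat, and LFD, the low fat diet, supplied 10%. In HFD + inulin, corn starch equal to 5% of diet weight and cellulose equal to another 5% gave way to inulin, a fructan that bacteria ferment. For the diet named HFD + inul PB, an equal share was taken by the butyrate and propionate esters of inulin, 5% of each, which carry these SCFA into the gut. The fiber diets differ from LFD in fat, corn starch, sucrose, maltodextrin and cellulose as well as in added fiber. These cannot be told apart in a comparison with LFD. There were 6 cecum arrays on HFD and 6 with inulin, 5 with the esters and 5 on LFD, while every diet had 6 liver arrays. The methods describe 6 mice a diet for the arrays, and each array is taken as 1 mouse.

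Acetate, propionate and butyrate are made in the cecum and colon when bacteria ferment fiber, and butyrate is a main fuel of the epithelial cells that absorb them. Slc5a8 encodes SMCT1, a sodium-coupled transporter of the apical membrane that carries SCFA and other monocarboxylates into the cell. Slc16a1, Slc16a7 and Slc16a3 encode MCT1, MCT2 and MCT4, proton-coupled carriers that move SCFA, lactate, pyruvate and ketone bodies in the direction of the gradient, and Bsg encodes basigin, the chaperone that brings MCT1 and MCT4 to the cell surface. In the liver the same family serves lactate and ketone body exchange with blood.

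Values are log2 fluorescence after cyclic loess normalisation within each tissue, so a difference of 1 is a doubling of signal. A probe's brightness depends on its own sequence, and levels are therefore compared between diets or tissues and never between genes. Between 48.4% and 55.88% of spots were well above background on the cecum arrays, and between 46.41% and 51.69% on the liver arrays. All 6 member probes were well above background on all 22 cecum arrays, and all but that of Slc5a8 on all 24 liver arrays. The tissue labels held against markers when both tissues were normalised together. On HFD, 9 of 10 epithelium markers and 9 of 10 absorptive colonocyte markers were higher in cecum, and 8 of 8 hepatocyte markers were higher in liver (limma, adjusted P under 0.05). Whole tissue was extracted, so fewer cells of a type and less RNA per cell cannot be told apart. One cecum array, HFD replicate 5, stood apart from the other HFD arrays, with the highest goblet cell marker level and the lowest absorptive colonocyte marker level of the diet. Several results are therefore also given without it.

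Slc5a8, the apical sodium-coupled carrier, was the only member to pass in a comparison of diets (limma, adjusted P under 0.05). Its signal in cecum was 2.46 times that of HFD when inulin was fed and 2.66 times when the esters were fed, and its LFD arrays overlapped those of HFD. The 250 bases before its annotated start (RefSeq, GRCm38.p6, chr10:88885742-88885991, plus strand) are shown because they belong to the one member that passed. The capitals mark TTTAT read on the opposite strand, the core of the site bound by the intestinal factor CDX2, which was searched on both strands.
Slc5a8: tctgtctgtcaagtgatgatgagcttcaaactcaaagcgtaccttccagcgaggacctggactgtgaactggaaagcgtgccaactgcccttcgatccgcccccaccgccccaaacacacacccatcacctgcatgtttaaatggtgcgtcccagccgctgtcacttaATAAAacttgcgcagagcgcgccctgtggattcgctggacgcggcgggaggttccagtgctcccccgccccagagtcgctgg
The match begins 82 bases before the start, and 37.3% of all 32851 promoters of this length hold at least one such match. It is a description of the letters and not evidence of binding. Of the 5 members, 3 had an entry in the promoter table, and those of Slc16a1 and Slc16a3 are given with their genes.

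On HFD the 6 cecum arrays read 9.58 at the lowest, 9.98 at the median and 11.43 at the highest for Slc5a8. On HFD + inulin the lowest array was 11.18, the median 11.26 and the highest 12.14. The 5 HFD + inul PB arrays read 11.61, 11.54, 11.59, 11.63 and 11.48. These arrays formed a tight group, with an SD of 0.06 against 0.65 for HFD, 0.38 for HFD + inulin and 0.35 for LFD. The 5 LFD arrays read 10.56, 10.08, 10.19, 10.96 and 10.32, below every array of both fiber diets. All HFD arrays but one were at or below 10.10, and replicate 5, at 11.43, stood among the fiber diets.

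**Figure D1:**
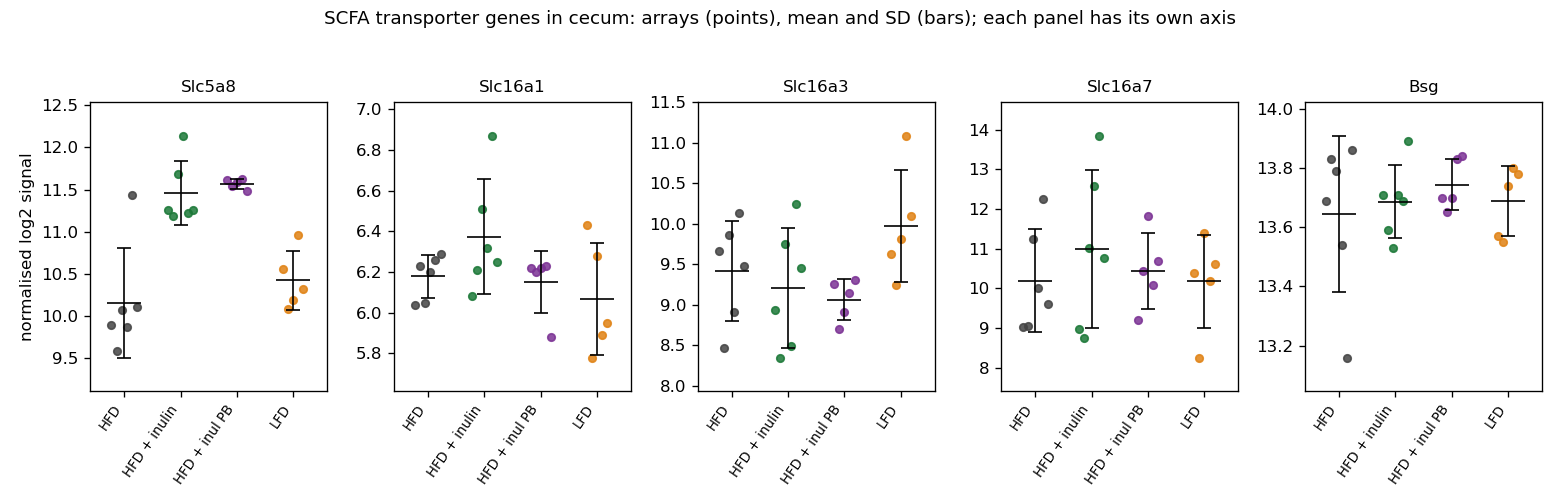
Normalised log2 signal of the 5 genes in cecum, by diet, with a point for each array and the mean and SD as bars; each panel has its own axis. For Slc5a8 the 5 HFD + inul PB arrays sit together between 11.48 and 11.63, above every HFD and LFD array, while the diets overlap in the other panels.

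Slc5a8 was higher by 1.30 on HFD + inulin than on HFD (SE 0.24, 95% CI 0.79 to 1.81, 2.46-fold, adjusted P = 0.0104 by limma). It was the only 1 of 5 members to pass in that comparison, in which 1.58% of all probes passed. The groups overlapped through HFD replicate 5 alone, and the exact two-sided permutation test gave P = 0.0108 where the smallest possible was 0.00216. Without that array the difference was 1.55. The call was lost when the 2 diets were fitted without the others (adjusted P = 0.120), with the same difference. On HFD + inul PB the difference from HFD was 1.41 (SE 0.25, 95% CI 0.88 to 1.94, 2.66-fold, adjusted P = 0.00264), and again 1 of 5 members passed, against 7.02% of all probes. Every HFD + inul PB array exceeded every HFD array, as was so for 3.51% of probes, and without HFD replicate 5 the difference was 1.67.

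On LFD, Slc5a8 differed from HFD by 0.27 (95% CI -0.26 to 0.80, adjusted P = 0.863). The difference was 0.52 without HFD replicate 5 and 0.13 without LFD replicate 4, and it passed in neither case. None of the 5 members passed there, and 0% of all probes did, although 2919 probes had an unadjusted limma P under 0.05. The mean of both fiber diets exceeded LFD by 1.09 (95% CI 0.62 to 1.56, adjusted P = 0.0222), with all 11 fiber arrays above all 5 LFD arrays, a separation seen in 0.416% of probes. In this comparison 1.12% of probes passed. The call was lost when any of LFD replicates 1, 2, 3 and 5 was left out, with adjusted P of 0.0645, 0.0780, 0.0670 and 0.0788, although the difference stayed between 1.00 and 1.22.

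In order of level the diets ran HFD + inul PB (11.57), HFD + inulin (11.46), LFD (10.42) and HFD (10.16). No pair of neighbours in this order passed in the model. Slc5a8 differed between the ester diet and plain inulin by 0.11, with an interval of -0.42 to 0.64 that leaves room for a difference in either direction, and 0.0216% of probes passed. Slc5a8 on HFD + inulin was 1.03 above LFD (95% CI 0.50 to 1.56, adjusted P = 0.127, in a comparison where 0.203% of probes passed). The arrays of these diets did not overlap, as for 1.16% of probes, and the exact permutation P for this gene alone was 0.00216, the smallest possible. Slc5a8 on HFD + inul PB was 1.15 above LFD and did pass (adjusted P = 0.0365, against 1.34% of probes), with no overlap, as for 2.96% of probes. This call was not checked under other settings or with arrays left out. LFD and HFD, the lower pair, overlapped.

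The measurement of Slc5a8 was repeated within each array, since its probe was printed at 10 spots. The SD over these spots ranged from 0.0418 to 0.1841 with a median of 0.0612, which covers the error of a spot and not the spread between mice. Taken spot by spot, the difference of HFD + inulin from HFD lay between 1.14 and 1.38, that of HFD + inul PB between 1.26 and 1.48 and that of LFD between 0.14 and 0.33. The high reading of HFD replicate 5 was shared by all 10 of its spots, from 11.34 to 11.50, while no spot on the other HFD arrays exceeded 10.22.

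Slide and scan day were available as technical batches, with 3 slides for each tissue, all 4 diets on each slide and the first slide scanned on a different day. For Slc5a8 in cecum, diet took 71.7% of the sum of squares and slide 4.05%. Within the slides HFD + inulin exceeded HFD by 1.48, 1.95 and 0.47, and HFD + inul PB exceeded HFD by 1.83, 1.62 and 0.78. The third slide, with the smallest differences, is the one that holds HFD replicate 5.

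Markers of other cells moved with the fiber diets as well. Of 8 goblet cell markers, which mark the mucus-secreting cells, 5 were lower with inulin (4 without HFD replicate 5) and 7 with the esters, with median differences of -0.55 and -0.89 beside medians of 0.02 over all measured probes, of which 1.37% were lower with inulin and 6.81% with the esters. Muc2, the main secreted mucin, was lower by 0.93 and by 1.28 in turn. Of 10 absorptive colonocyte markers 2 were higher with inulin and 4 with the esters, against 1.66% and 6.71% of measured probes, with medians of 0.38 and 0.43, or 0.25 and 0.45 without HFD replicate 5. Their mean level was 15.81 ± 0.10 on HFD, 16.13 ± 0.06 with inulin, 16.27 ± 0.09 with the esters and 15.93 ± 0.06 on LFD (SD, n = 6, 6, 5 and 5). For the goblet cell list it was 16.04 ± 0.30, 15.43 ± 0.16, 15.17 ± 0.11 and 15.84 ± 0.24 in the same order. None of 10 epithelium markers passed on HFD + inulin and 1, Cdx2, on HFD + inul PB (higher by 0.42), with medians of -0.06 and 0.05, or 0.03 and 0.08 without HFD replicate 5. The mean level of epithelium markers was 15.31 ± 0.09 on HFD, 15.32 ± 0.09 with inulin and 15.37 ± 0.06 with the esters (SD, n = 6, 6 and 5). Against LFD, the mean of the fiber diets had 6 of 8 goblet cell markers lower (median -0.52), beside 1.24% of measured probes. Of 10 absorptive colonocyte markers 1 was higher there (median 0.17), or 3 without HFD replicate 5, beside 0.942% of measured probes. The part of these marker shifts in the Slc5a8 result was not tested.

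Adipocyte markers had median differences of -2.02 on HFD + inulin and -3.68 on the ester diet, and their arrays were widely spread. Plin1, a lipid droplet coat protein, and Fabp4, a fatty acid binding protein, passed among the 6 measured on HFD + inul PB, and neither did without HFD replicate 5. Of 6 enteric neuron markers 4 were lower on HFD + inulin, 2 without HFD replicate 5, and none passed on HFD + inul PB. The counts of lower genes here and in the next sentences stand beside the same 1.37% and 6.81% of measured probes. Of 5 proliferation and crypt base markers 1 was lower with inulin and 2 with the esters. Among smooth muscle and erythroid markers none passed on either diet. On HFD + inul PB 1 macrophage marker of 4 and 1 B and plasma cell marker of 3 were lower. They were C1qa, a complement subunit, and Cd79b, a part of the B cell receptor. Of the 6 hepatocyte markers measured in cecum 1, Tat, an enzyme of tyrosine breakdown, was higher on both fiber diets (by 0.72 and 0.69), beside 1.66% and 6.71% of measured probes. The median of the hepatocyte list lay on the other side, at -0.35 and -0.94, or -0.15 and -0.29 without HFD replicate 5, and its mean level was 9.43 ± 0.78 on HFD, 8.76 ± 0.59 with inulin and 8.44 ± 0.55 with the esters (SD, n = 6, 6 and 5). None of these lists had a gene that passed on LFD. Their part in the Slc5a8 result was not tested either.

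Across the 22 cecum arrays Slc5a8 correlated with the mean level of the absorptive colonocyte markers at r = 0.73, with goblet cell markers at r = -0.64 and with adipocyte markers at r = -0.64. The arrays share their diets, and after removal of the diet means these values were -0.14, 0.27 and -0.38. HFD replicate 5 had the highest goblet cell level (16.63) and the lowest absorptive colonocyte level (15.68) of the 22 arrays together with the highest Slc5a8 of its diet. With diet means removed, this array pulls the absorptive colonocyte value down and the goblet cell value up. The correlations were not computed without it, so they do not show how Slc5a8 and these markers vary together on the other arrays of a diet.

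**Figure D2:**
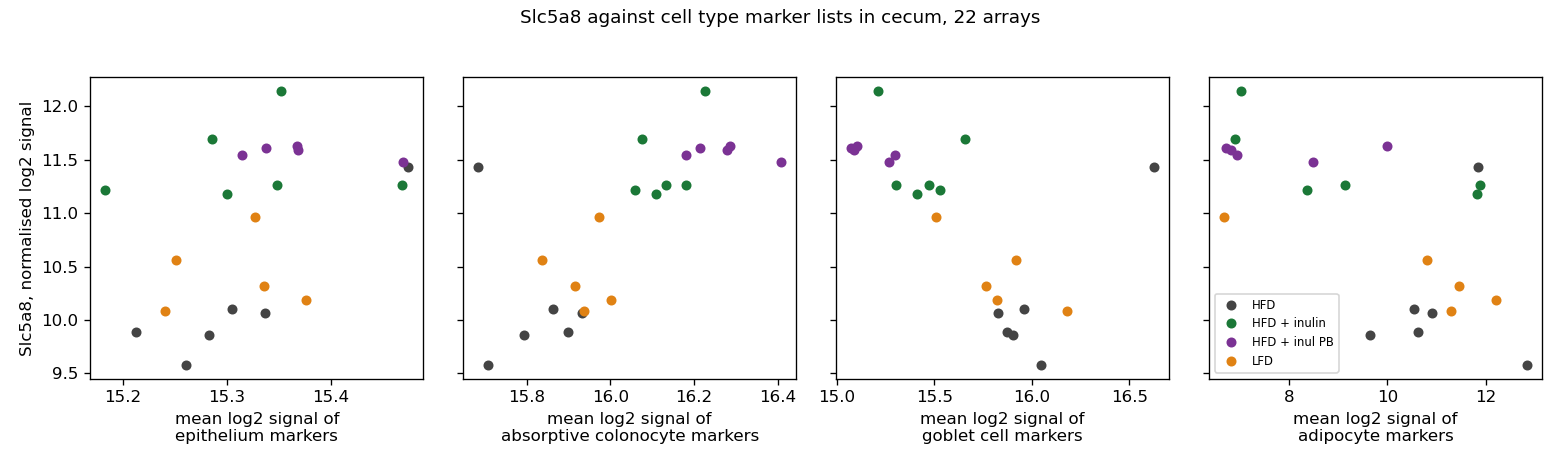
Slc5a8 signal (vertical axis, normalised log2) against the mean normalised log2 signal of 4 cell type marker lists (horizontal axes) on the 22 cecum arrays, coloured by diet. The fiber diets form the upper groups, and the HFD array at 11.43 sits at the lowest absorptive colonocyte level and the highest goblet cell level.

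By likeness over the 22 cecum arrays and among 13764 genes, Slc5a8 was nearest to Mov10, an RNA helicase (r = 0.909), Itpr3, an inositol trisphosphate receptor of calcium stores (r = 0.909), and Fbxo25, an F-box protein (r = 0.897). With diet means removed these correlations were 0.66, 0.69 and 0.61. Mov10 had a mean of 11.38 on HFD, 12.37 with inulin, 12.44 with the esters and 11.45 on LFD, the same order of diets as Slc5a8. Since Mov10 was picked for its likeness to Slc5a8 on these same arrays, the shared order is no separate result.

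Slc16a1, the gene of MCT1, gave no comparison in cecum that passed. Its single probe was dim, with a median raw intensity of 129.5 beside a local background of 29. The bases before its start (chr3:104638414-104638663, plus strand) are shown to set this gene beside Slc5a8, and the capitals mark a CACGTG, the E-box bound by Myc among others, which reads the same on both strands.
Slc16a1: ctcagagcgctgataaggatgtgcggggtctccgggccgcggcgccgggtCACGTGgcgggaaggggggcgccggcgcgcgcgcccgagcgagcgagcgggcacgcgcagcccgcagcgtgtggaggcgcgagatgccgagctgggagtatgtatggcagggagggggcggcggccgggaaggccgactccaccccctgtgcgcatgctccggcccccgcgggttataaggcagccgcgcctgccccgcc
This E-box begins 200 bases before the start, it contains the shorter motif ACGTG on both strands, and 6.02% of promoters hold one.

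The HFD arrays for Slc16a1 ran from 6.04 to 6.29 with a median of 6.22, and the HFD + inulin arrays from 6.08 to 6.87 with a median of 6.28. The HFD + inul PB arrays read 6.22, 6.20, 6.22, 6.23 and 5.88, and the LFD arrays 6.43, 5.78, 6.28, 5.89 and 5.95. All diets overlapped, with replicate 5 of HFD + inul PB below its fellows. HFD + inulin differed from HFD by 0.20 (95% CI -0.07 to 0.46, adjusted P = 0.514), HFD + inul PB by -0.03 (95% CI -0.30 to 0.25) and LFD by -0.11 (95% CI -0.39 to 0.16). The first of these was 0.10 without HFD + inulin replicate 5, and the last ranged from -0.20 to -0.04 with an array left out. The signs of the differences on HFD + inul PB and LFD turned under other background corrections, and that on HFD + inul PB also under 2 other scalings. A change as large as that of Slc5a8 lies outside all of these intervals. Its nearest genes over the cecum arrays were Rims1 (r = 0.840), Brpf1 (r = 0.831) and Srrm1 (r = 0.809).

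Slc16a3, the gene of MCT4, the carrier that exports lactate from glycolytic cells, ranged over 1.67 to 1.89 within HFD, HFD + inulin and LFD in cecum and over 0.61 within HFD + inul PB. Its upstream bases (chr11:120948817-120949066, plus strand) hold ACGTG, the core bound by the hypoxia factor HIF-1, at 2 places that begin 27 and 14 bases before the start. Of all promoters 16.6% have at least one such core on either strand, and the capitals mark those of Slc16a3.
Slc16a3: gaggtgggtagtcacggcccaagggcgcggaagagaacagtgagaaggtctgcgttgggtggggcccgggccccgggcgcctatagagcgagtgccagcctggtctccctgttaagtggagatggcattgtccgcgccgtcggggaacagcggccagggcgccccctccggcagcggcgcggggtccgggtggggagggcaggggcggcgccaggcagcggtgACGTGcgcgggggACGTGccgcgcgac

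In cecum the HFD arrays for Slc16a3 ran from 8.47 to 10.14 with a median of 9.57, and the HFD + inulin arrays from 8.35 to 10.24 with a median of 9.19. The HFD + inul PB arrays read 9.26, 8.70, 8.91, 9.15 and 9.31. The LFD arrays read 9.63, 9.24, 9.81, 11.09 and 10.10. LFD thus held the highest single array and the highest mean (9.98), while HFD + inul PB held the lowest mean (9.07). Slc16a3 differed from HFD by -0.22 on HFD + inulin (95% CI -0.93 to 0.50), by -0.35 on HFD + inul PB (95% CI -1.10 to 0.40) and by 0.56 on LFD (95% CI -0.19 to 1.31), and none passed. Without LFD replicate 4, the highest array, the LFD difference was 0.28. With an array left out those with inulin and with the esters ranged from -0.42 to -0.04 and from -0.54 to -0.21.

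The mean of the fiber diets differed from LFD by -0.84 for Slc16a3 (95% CI of the difference -1.51 to -0.17, adjusted P = 0.264, not passed), and by -0.56 without LFD replicate 4. The exact two-sided permutation test for this gene alone gave P = 0.0197, with 0.000229 the smallest possible and 6 of 11 fiber arrays below every LFD array. Within the slides this difference was -0.62, -0.76 and -1.06. Slide, which the permutation test does not take into account, took 30.87% of the Slc16a3 sum of squares in cecum and diet 26.25%. The second Slc16a3 probe followed the first closely in cecum (r = 0.971 over 22 arrays, largest gap 0.46) and gave -0.75. The nearest other genes were Atf6 (r = 0.775), Tmem97 (r = 0.742) and Ikbkg (r = 0.737).

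Slc16a7, the gene of MCT2, a carrier of high affinity for pyruvate, spread over more than any other member, from 8.26 to 13.85 in cecum. The HFD arrays had a lowest value of 9.03, a median of 9.81 and a highest of 12.25, and the HFD + inulin arrays 8.75, 10.90 and 13.85. The HFD + inul PB arrays read 9.20, 10.44, 11.82, 10.08 and 10.70, and the LFD arrays 10.40, 8.26, 11.41, 10.20 and 10.61. Every diet overlapped every other. The difference from HFD was 0.79 on HFD + inulin (95% CI -0.87 to 2.45), 0.25 on HFD + inul PB (95% CI -1.49 to 1.99) and -0.02 on LFD (95% CI -1.76 to 1.72). With an array left out the difference with inulin ranged from 0.22 (without HFD + inulin replicate 5) to 1.24 (without HFD + inulin replicate 2), and without HFD replicate 5 it was 1.20. The difference with the esters ranged from -0.10 to 0.66, the latter without HFD replicate 5, and that on LFD from -0.33 to 0.46. With all arrays, the 3 intervals take in a rise as large as that of Slc5a8, which this probe could not have told from no change.

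Slide moved with Slc16a7 more than diet did. In cecum slide took 45.8% of its sum of squares and diet 6.31%, with slide means of 9.27, 11.34 and 11.01. In liver slide took 73.9% and diet 5.53%, with slide means of 8.62, 9.71 and 9.31. In both tissues the first slide was the lowest and the second the highest. With slide as a block the difference of LFD from HFD in cecum became 0.14, and no Slc16a7 comparison fitted with this block passed.

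**Figure D3:**
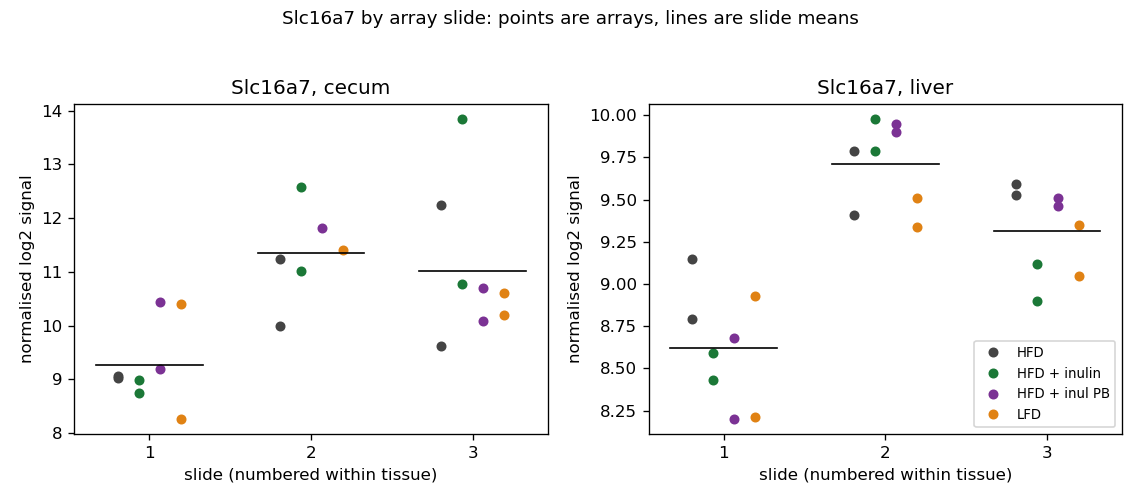
Normalised log2 signal of Slc16a7 on each array by slide, in cecum (left) and liver (right), coloured by diet, with a line at each slide mean. In both tissues the first slide is lowest (means 9.27 and 8.62) and the diets are mixed within each slide.

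The Slc16a7 signal was closely followed by that of many other genes. In cecum 47 of 13764 genes followed it at r over 0.9, against 2 for Slc5a8 and 0 for each of the other members. Nearest were Trpm1, a cation channel known from retina and melanocytes (r = 0.995), Ccdc172, a coiled-coil protein (r = 0.995), and Cd5l, a secreted protein of macrophages (r = 0.991). In liver 12 of 12529 genes passed r = 0.9, led by Notch1, a receptor of cell fate signalling (r = 0.975), Cftr, the chloride channel (r = 0.971), and Cmya5, a muscle protein (r = 0.970). Among the 11777 genes compared in both tissues, all 12 of the liver set were in the cecum set of 40, which is 100% of the former and 30% of the latter. Trpm1 had slide means of 12.59, 14.13 and 13.83 in cecum and 11.45, 12.62 and 12.30 in liver, in the same order as Slc16a7. Cd5l, by contrast, had r = -0.50 with Slc16a7 in liver. The part of slide in these correlations was not tested.

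Bsg, the gene of the chaperone basigin, was bright and steady in cecum. Its HFD arrays ran from 13.16 to 13.86 with a median of 13.74, and its HFD + inulin arrays from 13.53 to 13.89 with a median of 13.70. The HFD + inul PB arrays read 13.70, 13.65, 13.70, 13.83 and 13.84, and the LFD arrays 13.57, 13.55, 13.74, 13.80 and 13.78. The low HFD value belongs to replicate 5, the same array on which Slc5a8 was high, and the diets overlapped throughout. The difference from HFD was 0.04 on HFD + inulin (95% CI -0.17 to 0.25), 0.10 on HFD + inul PB (95% CI -0.12 to 0.32) and 0.04 on LFD (95% CI -0.18 to 0.27). Without HFD replicate 5 the differences with inulin and on LFD turned to -0.06 and -0.05, and that with the esters fell to 0.003. Changes of more than 0.32 in size lie outside the intervals given. Nearest to Bsg across the cecum arrays were Gm5617 (r = 0.842), Gstm5, a glutathione transferase (r = 0.842), and Slc25a20, the mitochondrial carnitine carrier (r = 0.841). Their rank correlations with Bsg were lower, at 0.63, 0.59 and 0.66.

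**Figure D4:**
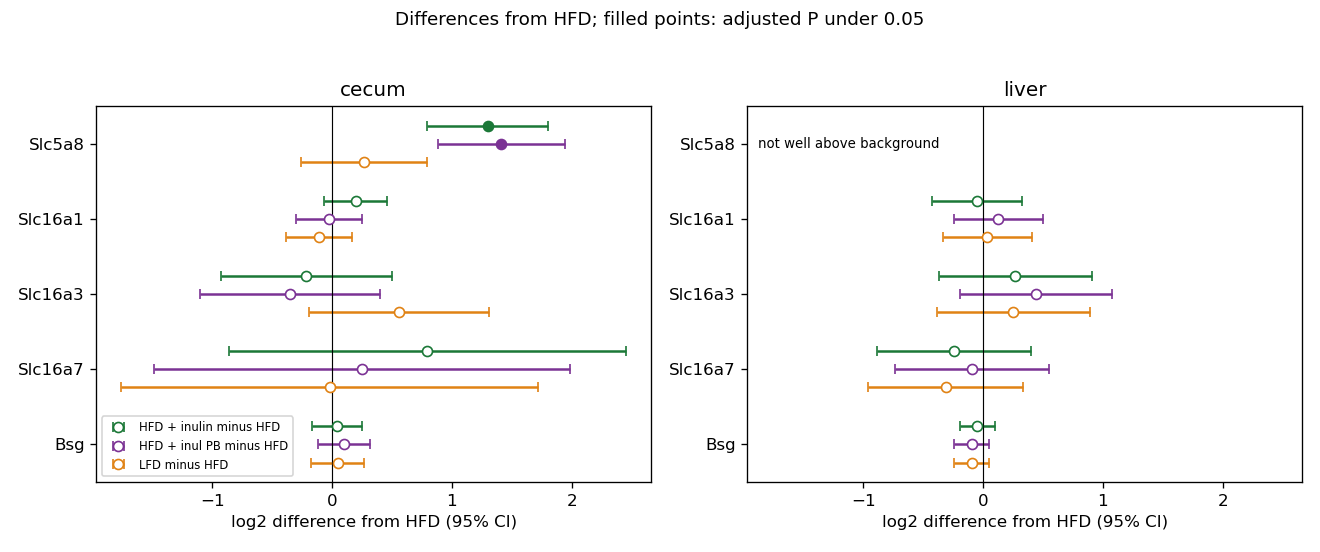
Log2 difference of each diet from HFD (horizontal axis) with its 95% CI for the 5 genes in cecum (left) and liver (right); filled points have adjusted P under 0.05 and Slc5a8 in liver is left out as not well above background. The 2 filled points are Slc5a8 on the fiber diets in cecum, at 1.30 and 1.41, and the widest intervals are those of Slc16a7.

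In liver no member passed against HFD. Against HFD, 0% of all probes passed on either fiber diet, with 2108 and 1741 at an unadjusted limma P under 0.05, and on LFD 0.0287% passed. With all arrays, cyclic loess and diet as the only term, none of the 4 members above background had an unadjusted limma P under 0.05 in a liver comparison. Between the fiber diets 0% of probes passed, between their mean and LFD 0.0593%, and for HFD + inulin and HFD + inul PB singly against LFD 0.0108% and 0.00359%. Slc5a8 was not well above background on any of the 24 arrays, with a median raw intensity of 49.38 beside a local background of 28.25, and its diets are not compared.

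Slc16a1 in liver had medians of 6.49 on HFD (5.90 to 6.91), 6.44 on HFD + inulin (5.85 to 6.61), 6.70 on HFD + inul PB (6.16 to 6.85) and 6.39 on LFD (6.25 to 6.87). The diets overlapped, and slide took 65.2% of its sum of squares with means of 6.13, 6.60 and 6.66. The largest difference from HFD was 0.13, on HFD + inul PB (95% CI -0.25 to 0.50). Its nearest genes were Msx1 (r = 0.866), Pemt, which makes phosphatidylcholine (r = 0.863), and Ppp1r14c (r = 0.857).

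Slc16a3 in liver had medians of 6.07 on HFD (5.71 to 6.59), 6.32 on HFD + inulin (6.13 to 6.58), 6.17 on HFD + inul PB (5.95 to 8.52) and 6.36 on LFD (5.99 to 6.60). The single high array was replicate 4 of HFD + inul PB, where the second probe also read high, at 8.63. Differences of Slc16a3 from HFD were 0.27 with inulin, 0.44 with the esters and 0.25 on LFD, each with an interval across 0, and the second probe gave -0.07 with inulin. Without HFD + inul PB replicate 4 the difference with the esters was 0.05. Genes nearest to it were Ak1, Lor and Tnni2 (r = 0.899, 0.887 and 0.882), and their rank correlations of 0.55, 0.51 and 0.50 were far lower. Tnni2, a troponin of fast muscle, reached 15.58 at its highest against a mean of 6.20 on HFD.

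Slc16a7 in liver had medians of 9.47 on HFD (8.79 to 9.79), 9.01 on HFD + inulin (8.43 to 9.98), 9.48 on HFD + inul PB (8.20 to 9.95) and 9.20 on LFD (8.21 to 9.51). Bsg in liver had medians of 12.36 on HFD (12.23 to 12.46), 12.30 on HFD + inulin (12.16 to 12.49), 12.30 on HFD + inul PB (12.16 to 12.33) and 12.21 on LFD (12.13 to 12.57). Both overlapped between all diets. For Slc16a7 the difference from HFD was -0.24 with inulin, -0.09 with the esters and -0.31 on LFD (95% CI of the last -0.96 to 0.33). With the replicate block the LFD difference of -0.31 had an unadjusted limma P of 0.0422 and an adjusted P of 0.580, and did not pass. For Bsg the difference from HFD was -0.05 with inulin, -0.09 with the esters and -0.09 on LFD (-0.16 without LFD replicate 5, adjusted P = 0.571), and its nearest genes were Tet1 (r = 0.753), Fam126b (r = 0.733) and Car7 (r = 0.733).

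**Figure D5:**
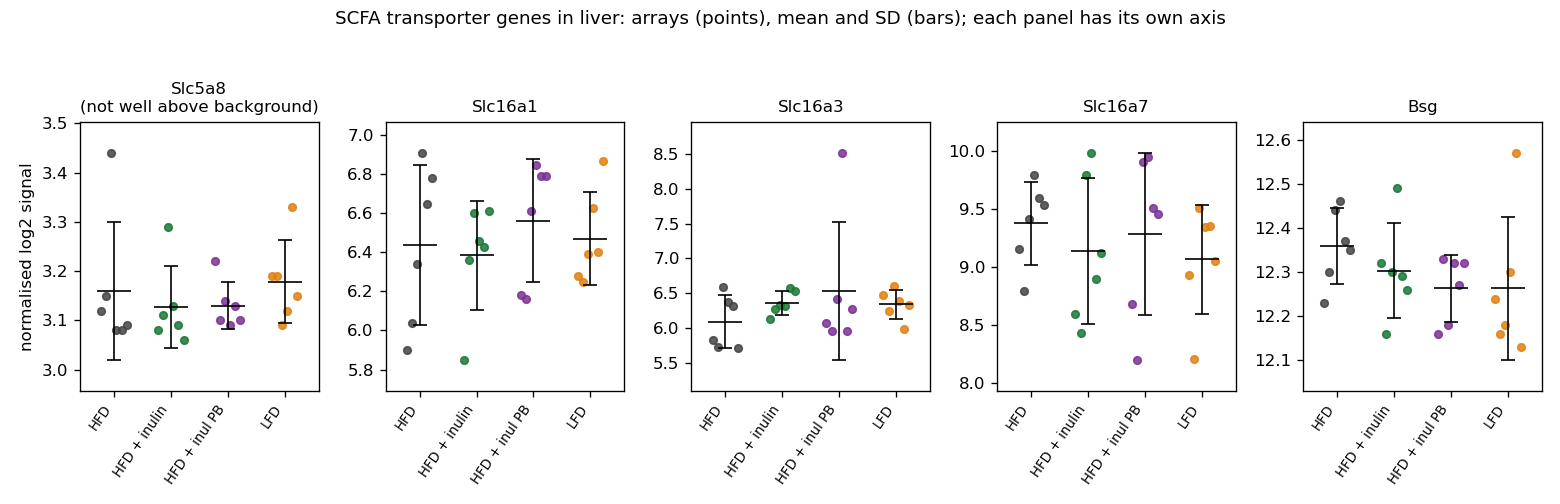
Normalised log2 signal of the 5 genes in liver, by diet, with a point for each array and the mean and SD as bars; each panel has its own axis. The diets overlap in every panel, the Slc5a8 panel is at background, and 1 HFD + inul PB array of Slc16a3 stands at 8.52.

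Between the tissues, with all 46 arrays normalised together, Slc5a8 was the most unequal member. On HFD its mean was 9.90 in cecum and 3.09 in liver, a measured difference with adjusted P = 5.381e-29 by limma. Since the liver signal was not well above background, the difference is given as at least 26.6-fold, a bound that this P does not test. On HFD 46.9% of all probes differed between the tissues. Slc16a3 was 7.12-fold higher in cecum (2.83, 95% CI 2.16 to 3.51, adjusted P = 1.018e-09) and Bsg 1.90-fold higher (0.93, 95% CI 0.75 to 1.11, adjusted P = 5.089e-12). Slc16a1 was 1.63-fold higher in liver (difference of cecum from liver -0.71, 95% CI -1.02 to -0.39, adjusted P = 0.000164). Its probe was dim in both tissues, with median raw intensities of 129.5 in cecum and 141.8 in liver beside local backgrounds of 29 and 27.5. Before normalisation its mean log2 processed signal over all arrays was 6.20 in cecum and 6.45 in liver. The size of the Slc16a1 difference thus depends on how the tissues are scaled to each other. Slc16a7 did not pass (0.41, 95% CI -0.80 to 1.62). Each slide held 1 tissue, so no comparison of the tissues within a slide can be made. For Slc16a1 the 3 cecum slides had HFD means of 5.89, 5.86 and 6.04, and the 3 liver slides 6.17, 6.84 and 6.91, so the slides did not overlap but the liver slides spread over as much as the tissue difference. With slide as a random block, a single correlation of 0.0722 for all probes, the same members passed. Under 2 other scalings the direction of each was kept, with 0.66 and 1.18 for Bsg and -0.86 under both for Slc16a1.

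Whether a diet acted differently in the 2 tissues could not be asked for Slc5a8, since its liver signal lay at background on every array. Of the other 4 members none passed in the test of that difference for HFD + inulin, HFD + inul PB or LFD, in which 0.277%, 2.01% and 0.0359% of all probes passed.

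The other genes around SCFA handling in cecum were taken as 4 lists. Of 11 measured monocarboxylate carriers and their partners besides the members, 1 was higher on HFD + inulin, and 3 were higher and 1 lower on HFD + inul PB. The shares of measured probes given for the marker lists, higher and lower, apply to these counts as well. Slc16a11, a carrier tied to lipid metabolism, was higher by 0.70 (adjusted P = 0.0277) and 0.59 (adjusted P = 0.0310). Slc16a13 was higher by 0.90 with the esters (adjusted P = 0.00489), with 0.39 on HFD + inulin, which did not pass. Slc16a6, a carrier of ketone bodies, was lower with the esters (difference -0.63, adjusted P = 0.0133). The list medians were -0.13 and -0.22, opposite in sign to most of the genes that passed.

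Of 18 measured genes of SCFA activation and oxidation, 1 was higher and 1 lower on HFD + inulin, and 2 were higher and 2 lower on HFD + inul PB, with list medians of 0.01 and 0.10, or -0.08 and 0.01 without HFD replicate 5. Acss1, which activates acetate in mitochondria, was higher by 0.61 (adjusted P = 0.00536) and 0.68 (adjusted P = 0.000917). Pcca, a subunit of the enzyme that carboxylates propionyl-CoA, was higher by 0.65 with the esters (adjusted P = 0.0216). Oxct1, which activates ketone bodies, fell by 0.98 with inulin (adjusted P = 0.0352) and by 1.03 with the esters (adjusted P = 0.0120). Acsm3, a medium-chain acyl-CoA synthetase that accepts butyrate, fell by 1.18 with the esters (adjusted P = 0.00119), and its difference of -0.71 on HFD + inulin did not pass.

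Of 10 genes of lactate and pyruvate use, 1 was lower on both fiber diets and 1 higher on HFD + inul PB. Pdha1, a subunit of pyruvate dehydrogenase, fell by 0.71 with inulin (adjusted P = 0.0158) and by 0.71 with the esters (adjusted P = 0.00723). Pck1, of gluconeogenesis, was higher by 0.89 with the esters (adjusted P = 0.0219). Ldha, the lactate dehydrogenase subunit, gave 0.13 and 0.03, neither of which passed.

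Of 12 measured genes of ion exchange, which work beside SCFA uptake at the same membrane, 3 were higher and none lower on each fiber diet, with list medians of 0.33 and 0.36, or 0.21 and 0.35 without HFD replicate 5. Slc26a3, the chloride and bicarbonate exchanger, was higher by 1.04 (adjusted P = 0.0388) and 1.21 (adjusted P = 0.00781). Car4, a membrane-bound carbonic anhydrase, was higher by 0.82 (adjusted P = 0.0144) and 1.20 (adjusted P = 0.000448). Both are also among the absorptive colonocyte markers. No gene of the 4 lists passed on LFD in cecum, where 0% of probes did. Between the mean of the fiber diets and LFD, 2 ion exchange genes were higher, beside 0.942% of measured probes. In that comparison 1 SCFA gene and 1 lactate and pyruvate gene were lower, beside 1.24%. It had 4 ion exchange genes and 1 SCFA gene higher without HFD replicate 5. Lower there were 2 SCFA genes and 3 lactate and pyruvate genes. Without HFD replicate 5, 4 carriers, 3 SCFA genes and 4 ion exchange genes were higher with the esters, 2 ion exchange genes were higher with inulin, and 2 lactate and pyruvate genes were lower on each fiber diet.

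In liver none of the 4 lists had a gene that passed against HFD. Those with the lowest unadjusted P included Mpc1 among the carriers, Acat1 and Acsm3 of SCFA activation and oxidation, Ldhd and Ldha of lactate and pyruvate use, and Car2 and Car1 of ion exchange. Acat1, which cleaves acetoacetyl-CoA, had the lowest adjusted P of these, at 0.0536 for a difference of -0.51 on LFD. Mpc1, a subunit of the mitochondrial pyruvate carrier, had -0.27 on LFD and Acsm3 had -0.48 there, and neither passed.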

How the data were processed

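Total RNA from 20 mg of tissue was labelled with Cy3 and hybridised to one-colour Agilent arrays with 62976 spots. Per the file headers, Agilent Feature Extraction 10.7.3.1 made the intensity values; the deposited processed signal is background-subtracted fluorescence intensity on a linear scale. The authors also deposited a table of log2 values that follows log2 of the spot median (r from 0.998 to 1 per array); it served as an alternative. The methods state that the authors left 1 array of HFD + inul PB, as an outlier, and 1 sample of LFD, for technical reasons, out of the cecum analysis.

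Control spots and outlier spots were left out, saturated spots kept, spots of a probe averaged and log2 processed signal normalised within each tissue by cyclic loess (span 0.7). The methods state the log2 scale, cyclic loess and the averaging of identical probes; the signal column, the spot filter, the fit by tissue and the span were chosen here. All 4 diets of a tissue were fitted together in limma 3.58.1 (R 4.3.3), with Benjamini-Hochberg adjustment over 55681 probes and a threshold of 0.05; "passed" means this. Both comparisons of a single fiber diet with LFD were added for the order of levels. A joint model over 46 arrays compared tissues. Exact permutation tests used the absolute difference of means. A list gene counted as measured when its probe was well above background in all arrays of some diet, and 1 probe, the brightest in the tissue, stood for each gene. Where a list level was averaged, genes with a missing spot were left out. The arrays' slides and scan days were read from the file headers. The code was tested on simulated data.

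Named were the 5 members, the 3 genes most correlated with each, and for each pathway list up to 2 passed rises and 2 passed falls, or the 2 lowest P in liver. One gene that this rule names is not reported here. Ldha in cecum and the marker genes were named after their values were seen. The members and lists were chosen with earlier results of these data known, and Slc5a8 is among the genes the study itself picked on these arrays. The alternatives were other scalings, background corrections, filters and blocks, and leaving out each array; slide as a random block in the joint model was added after seeing the data. No mean signal column was present, so the spot median entered the normexp correction. Mice are not matched between tissues in the labels. The number of arrays limits the precision.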

Additional observations from a re-analysis of the deposited data

Results flagged for a closer look

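In groups of 4 to 10 arrays, 36 groups were examined for an array far from the rest and 4 were found; chance marks about 1 group in 20. Slc5a8 in cecum read 11.43 on HFD replicate 5, with the next array at 10.10. Slc16a1 in cecum read 5.88 on HFD + inul PB replicate 5, with the next at 6.20. Slc16a1 in liver read 5.85 on HFD + inulin replicate 1, with the next at 6.36. Slc16a3 in liver read 8.52 on HFD + inul PB replicate 4, with the next at 6.42.

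The joint model gave the cecum response of Slc5a8 minus its liver response as 1.30 with inulin and 1.44 with the esters on the log2 scale, both past the threshold. Its liver signal lay at background on all 24 arrays, so these values repeat the cecum differences and do not show that the responses of the tissues differ.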

How the results depend on the processing

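Among the members' comparisons, 498 values under other settings kept their direction and side of the threshold, 21 turned sign and 1 lost its call. With arrays left out 1 at a time the numbers were 530, 35 and 4. These values leave out both comparisons of a single fiber diet with LFD, which were not rerun. The Slc5a8 call on HFD + inul PB against LFD was therefore not checked in this way. The lost call was Slc5a8 on HFD + inulin against HFD, at 1.2999 (adjusted P = 0.1196 by limma) with only the diets compared; its other settings gave 1.23 to 1.31. None of the values that turned sign had passed, and the cause was not tested. For Slc16a1 in cecum, HFD + inul PB minus HFD (-0.03) became 0.0306 with 75th percentile scaling, 0.0514 with quantile, 0.0657 with normexp, 0.0512 without background correction and 0.0498 in the authors' values, and LFD minus HFD (-0.11) became 0.0474 with normexp, 0.033 without background correction and 0.0316 in the authors' values. For Slc16a7 in cecum, LFD minus HFD (-0.02) became 0.0094 with 75th percentile scaling, 2e-04 with normexp and 0.1379 with slide as a block. For Bsg in cecum, the fiber mean minus LFD (0.03) became -0.0249 with normexp, -0.0279 without background correction and -0.0309 in the authors' values. For Slc16a1 in liver, the fiber mean minus LFD (0.0025) became -1e-04 with quantile and -0.0404 with loess over all pairs, and LFD minus HFD (0.03) became -0.0233, -0.0276 and -0.0272 with normexp, without background correction and in the authors' values. The other Slc16a3 probe in liver gave -0.0725 for HFD + inulin minus HFD (0.27) and -0.1221 for the fiber mean minus LFD (0.10).

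With 1 array left out, Slc5a8 in cecum ranged from 1.1632 to 1.5549 (HFD + inulin) and from 1.2956 to 1.6657 (HFD + inul PB) against HFD, and from 1.0036 to 1.2243 for the fiber mean minus LFD, whose call was lost without LFD replicate 1, 2, 3 or 5. Ranges that crossed 0 were, in cecum, Bsg -0.0554 to 0.0843 (HFD + inulin minus HFD), -0.0515 to 0.0882 (LFD minus HFD) and -0.0089 to 0.054 (fiber mean minus LFD), Slc16a1 -0.0549 to 0.0387 (HFD + inul PB minus HFD), Slc16a7 -0.0958 to 0.6584 (HFD + inul PB minus HFD), -0.3279 to 0.459 (LFD minus HFD) and -0.994 to 0.0257 (between the fiber diets), and Slc16a3 -0.3074 to 0.0699 (between the fiber diets). In liver they were Slc16a1 -0.1605 to 0.0533 (HFD + inulin minus HFD), -0.073 to 0.1293 (LFD minus HFD) and -0.0413 to 0.0824 (fiber mean minus LFD), Slc16a7 -0.227 to 0.1226 (HFD + inul PB minus HFD) and -0.0274 to 0.2517 (fiber mean minus LFD), Slc16a3 -0.2233 to 0.2912 (between the fiber diets) and -0.0951 to 0.1621 (fiber mean minus LFD), and Bsg -0.0061 to 0.0825 (fiber mean minus LFD).

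Same-numbered arrays deviated together (correlation over 0.1) in 15 of 31 pairs in cecum and 25 of 36 in liver. In liver the same number also means the same slide and row, and in cecum for most arrays; in liver the mean correlation was 0.14 to 0.28 for the same number and -0.06 to -0.03 for other numbers. Since not every pair did so and the labels give no shared origin, the numbers were not used as pairs. With the replicate block, Slc5a8 in cecum differed from HFD by 1.30 (adjusted P = 0.0192 by limma) and 1.39 (adjusted P = 0.00734) on the fiber diets and by 0.24 on LFD. No member's call changed in the comparisons fitted with this block. Both comparisons of a single fiber diet with LFD were not among them. In liver the probes that passed went from 16 to 5 (LFD minus HFD) and from 33 to 19 (fiber mean minus LFD). The number of probes that passed on HFD + inulin against HFD, 878, was 46 with only the diets compared, 368 with 75th percentile scaling, 1331 with slide as a block, 1803 among bright probes and 331 to 1369 with an array left out. On HFD + inul PB, 3907 became 2248 to 3651 with an array left out. For the fiber mean minus LFD in cecum, 624 became 301 with 75th percentile scaling, 1228 among bright probes and 165 to 746 with an array left out. In liver, 16 for LFD minus HFD became 34 with normexp, 36 without background correction and in the authors' values, 40 among bright probes, 4 with only the diets compared and 4 to 32 with an array left out, and 33 for the fiber mean minus LFD became 14 with 75th percentile scaling, 55 among bright probes, 12 with only the diets compared and 7 to 94 with an array left out. The number of arrays and, for Slc16a1 and for Slc5a8 in liver, the low signal over background limit what could be seen.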
